A study of Mus musculus with 10 samples.

Results

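The 9 genes described here encode the receiving side of the Hedgehog pathway: the receptor Ptch1, the signal transducer Smo, the co-receptors Cdon, Boc and Gas1, the transcription factors Gli1, Gli2 and Gli3, and the ligand-binding protein Hhip. They were chosen by gene symbol, with no threshold on any value, although earlier results of these data were known when the list was made. Every probe set annotated to 1 of these genes and to no other was taken, which gave 24 probe sets of 9 genes, of 34945 probe sets of 18193 genes in all. A probe set is a group of short oligonucleotides on the Affymetrix array that together read a transcript. Of the 24, 21 had a mean log2 signal above the filter of 4.81 and were tested. The other 3, 1 each of Smo, Gli3 and Boc, were dim in all samples.

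The samples were from mouse embryos at 15 days post coitum (dpc) and formed 5 groups of 2 biological replicates. ICR, an outbred stock, gave gallbladders of both genotypes, wild type and Sox17+/-, and the cystic duct, through which the gallbladder empties, of wild type embryos. C57BL/6 (B6), an inbred strain, gave wild type and Sox17+/- gallbladder. Sox17 encodes a transcription factor of the biliary endoderm, and Sox17+/- embryos are heterozygous; the labels do not describe the allele, nor say whether tissue of several embryos was pooled. Because whole organs were used, fewer cells of a type and less RNA per cell cannot be told apart in any value given here.

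Hedgehog ligands are secreted, in the gut and its outgrowths mostly by the epithelium, and are received by the mesenchyme around it. Without ligand, Ptch1 holds Smo inactive. When ligand binds Ptch1, with Cdon, Boc or Gas1 as co-receptors, Smo is released and the Gli factors switch target genes on. Gli2 is the main activator and Gli3 mostly a repressor. Ptch1, Gli1 and Hhip are themselves targets of the signal, so that their transcripts are commonly read as a measure of it; Ptch1 and Hhip then bind and restrain the ligand. Transcripts of Cdon, Boc and Gas1 are lowered by the signal in several tissues.

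Promoter windows from RefSeq (mouse assembly GRCm38.p6), of 250 bases before to 50 bases after the gene's start, were found for 7 of the 9 genes; Gli1 and Boc had none in the table used. The part outside the annotated gene is shown for 3 genes, 5′ to 3′ on the gene's strand: Hhip, which was lower both in Sox17+/- gallbladder and in cystic duct, Gli3, which was lower in cystic duct, and Smo, which passed in no comparison. Capitals mark the core CCACCC, or GGGTGG on the other strand, of the motif GACCACCCA that Gli proteins bind.
Hhip promoter, chr8:80058061-80058258, minus strand: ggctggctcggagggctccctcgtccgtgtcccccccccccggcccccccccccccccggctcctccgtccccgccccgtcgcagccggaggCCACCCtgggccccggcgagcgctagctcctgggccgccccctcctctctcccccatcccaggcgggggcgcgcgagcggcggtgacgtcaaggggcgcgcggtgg
Gli3 promoter, chr13:15463473-15463722, plus strand: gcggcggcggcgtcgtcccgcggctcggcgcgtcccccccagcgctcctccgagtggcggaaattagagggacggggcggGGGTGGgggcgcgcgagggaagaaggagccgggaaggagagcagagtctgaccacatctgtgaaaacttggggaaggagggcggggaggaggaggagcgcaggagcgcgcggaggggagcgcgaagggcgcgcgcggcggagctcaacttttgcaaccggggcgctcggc
Smo promoter, chr6:29735247-29735496, plus strand: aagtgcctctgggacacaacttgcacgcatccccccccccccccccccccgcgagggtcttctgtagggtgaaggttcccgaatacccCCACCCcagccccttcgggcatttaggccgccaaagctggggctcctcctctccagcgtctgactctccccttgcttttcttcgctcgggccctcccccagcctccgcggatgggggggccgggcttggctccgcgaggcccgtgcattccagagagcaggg
The core begins at -158 in Hhip, -170 in Gli3 and -162 in Smo, counted from the start of transcription. It was found in 4 of the 7 windows (these 3 and Gli2) and in 10340 of 32851 windows of all genes, or 31.5%. The longer motif, which contains the core, was in 0 of the 7 and in 83 of all windows, or 0.253%. The core was thus present in a window whose gene was lower and in a window whose gene was not.

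Sox17 read lower in the gallbladders labelled Sox17+/- than in the wild type ones. Its probe set 1421657_a_at averaged 9.38 log2 units in ICR wild type and 7.77 in ICR Sox17+/- gallbladder, and 9.16 and 7.97 in B6, a fall of 1.40 over both strains (SE 0.11, limma adjusted p = 0.00862). In B6 alone Sox17 did not pass. In wild type cystic duct this probe set averaged 7.95, between the 2 Sox17+/- means, so a low reading does not by itself mark the genotype. Replicates correlated at 0.960 to 0.995 in the gallbladder groups, and 0.118% to 4.53% of tested probe sets differed between them by over 1 log2 unit. The cystic duct pair stood apart, with a correlation of 0.889 and 25.6% of probe sets over 1 log2 unit apart, and every result on the cystic duct rests on this pair. Genotype and strain were therefore tested on the 8 gallbladder samples. Region was tested on all 10, with a variance pooled over the cystic duct and the gallbladder groups, whose replicates lay closer together. This can make the p-values for region too small. For Gli1 the SE for region was 0.23 in that fit and 0.37 with only the compared samples.

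Each of the 9 genes had at least 1 probe set above the filter. Averaged over the 10 samples, Gas1 1416855_at (12.10) stood in the 99th percentile of all single-gene probe sets, Ptch1 1428853_at (10.75) in the 96.0th, Smo 1427049_s_at (10.38) in the 94.5th and Cdon 1434957_at (9.83) in the 91.8th. Gli1 (7.26) and the brightest probe set of Hhip (7.29) stood in the 64.5th and 64.8th. These are percentiles of signal, which also depends on each probe set's own hybridization, so they do not order the genes by transcript level. The 3 probe sets left untested ranged from 2.83 to 3.67 (Smo 1442215_at), 3.79 to 4.46 (Gli3 1450525_at) and 3.00 to 3.54 log2 units (Boc 1427517_at). By the maker's naming, a probe set ending in _s_at may also read related transcripts of other genes.

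Hhip, the membrane protein that binds and sequesters Hedgehog ligands, was lower in Sox17+/- than in wild type gallbladder, and it was the 1 gene of the 9 with a probe set that passed for genotype. Probe set 1455277_at read 8.22 and 8.46 log2 units in the ICR wild type gallbladders and 6.57 and 6.30 in the Sox17+/- ones. In B6 it read 8.30 and 8.17 in wild type and 6.49 and 7.02 in Sox17+/-. Every Sox17+/- gallbladder lay below every wild type one in both strains, and the wild type levels of the strains overlapped. Over both strains it fell by 1.69 on the log2 scale (3.24-fold, SE 0.14, limma adjusted p = 0.0125).

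A second reading of Hhip came from probe set 1421426_at. It read 6.80 and 6.44 in ICR wild type, 4.87 and 5.0 in ICR Sox17+/-, 6.60 and 6.57 in B6 wild type and 5.32 and 5.29 in B6 Sox17+/- gallbladder. It fell by 1.49 over both strains (2.80-fold, SE 0.11, limma adjusted p = 0.00794), again with no overlap between genotypes. Both Hhip calls were lost with the replicate number as a block (adjusted p = 0.0680 and 0.0567 in limma) and with all 10 samples in the fit (0.0762 for each), while the size of the fall stayed the same. Both were also lost without B6 wild type replicate 3 (0.133 and 0.0803), B6 wild type replicate 4 (0.107 and 0.0700) or B6 Sox17+/- replicate 3 (0.0586 and 0.0662), and that of 1455277_at without ICR Sox17+/- replicate 2 (0.0636).

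The remaining Hhip probe sets did not pass over both strains. Probe set 1438083_at read 5.63 and 6.33 in ICR wild type, 4.39 and 4.52 in ICR Sox17+/-, 5.68 and 5.83 in B6 wild type and 4.72 and 4.79 in B6 Sox17+/- gallbladder, without overlap (difference -1.27, SE 0.16, limma adjusted p = 0.0525). All Sox17+/- readings of 1438083_at lay below the filter of 4.81, and all its wild type gallbladder readings lay above it. It was tested because its mean over all samples (5.17) passed the filter. Signal near the filter therefore limits how well the size of its fall is known. Probe set 1437933_at showed another pattern. It read 7.48 and 7.51 in ICR wild type and 5.96 and 5.56 in ICR Sox17+/-, but 5.67 and 5.16 in B6 wild type and 5.48 and 4.86 in B6 Sox17+/-, where the genotypes overlapped. Only in ICR wild type was this probe set high, and its difference over both strains was -0.99 (SE 0.19, limma adjusted p = 0.143).

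**Figure D1:**
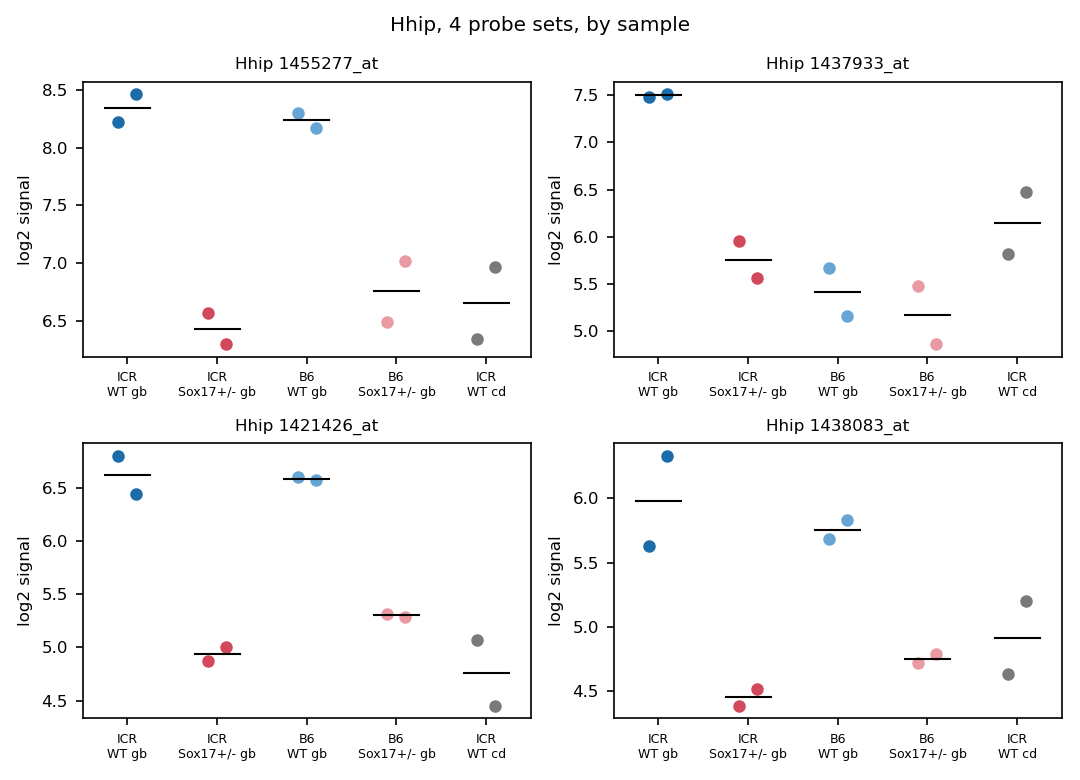
Log2 signal of the 4 Hhip probe sets in each sample (points; bars are the means of 2) for the 5 groups; gb is gallbladder and cd cystic duct, and each panel has its own axis range. In 3 panels both wild type gallbladder groups stand above both Sox17+/- groups and the cystic duct, while 1437933_at is high in ICR wild type gallbladder alone.

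By strain, the falls of Hhip in ICR were -1.91 (1455277_at), -1.69 (1421426_at), -1.53 (1438083_at) and -1.74 (1437933_at) on the log2 scale, of which that of 1421426_at passed (SE 0.15, limma adjusted p = 0.0343). The next was 1455277_at, with an adjusted p of 0.0542. In B6 the differences were -1.48, -1.28, -1.0 and -0.24 for the same probe sets, and 0 passed, with limma adjusted p of 0.194, 0.159, 0.584 and 1.00. The ICR call was lost with the block (0.123), with all 10 samples (0.316), and without any 1 of 7 of the 8 gallbladder samples, with ICR wild type replicate 2 the exception (0.0513 to 0.225 in the others).

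Whether the genotype effect differed between strains was tested directly as the B6 minus ICR difference of the effects. For Hhip these were 0.43 (SE 0.29), 0.40 (SE 0.22) and 0.53 (SE 0.32) for 1455277_at, 1421426_at and 1438083_at and each lay under 2 SE from 0. For 1437933_at the difference was 1.5 (SE 0.38; unadjusted p = 0.00529, limma adjusted p = 0.817). The percentage of all 24461 tested probe sets that passed this test was 0, and the smallest adjusted p was 0.817. At an unadjusted p under 0.05 limma listed 3 of the 21 member probe sets and 1417 of all.

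Ptch1, the receptor and a target of the signal, was lower in the ICR Sox17+/- samples without passing. Its brightest probe set, 1428853_at, read 11.13 and 11.35 in ICR wild type and 10.17 and 10.67 in ICR Sox17+/- gallbladder, against 11.15 and 11.09 in B6 wild type and 10.80 and 11.10 in B6 Sox17+/-. The ICR genotypes were apart and the B6 genotypes overlapped. The log2 difference was -0.82 in ICR (SE 0.18, limma adjusted p = 0.229), -0.17 in B6 (SE 0.18, adjusted p = 1.00) and -0.49 over both (SE 0.13, adjusted p = 0.303). Probe set 1439663_at gave -0.62 in ICR and -0.35 in B6 (SE 0.26 each) and did not pass. Its genotypes were apart in both strains, in B6 narrowly (6.27 and 6.19 in wild type, 5.62 and 6.14 in Sox17+/-). Probe set 1450824_at gave -0.12 and 0.03, with overlap in both strains.

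Gli1, the transcriptional activator whose own gene is a target of the pathway, has a single probe set, 1449058_at. It read 7.79 and 8.07 in ICR wild type, 7.01 and 7.17 in ICR Sox17+/-, 7.53 and 7.59 in B6 wild type and 7.32 and 7.61 in B6 Sox17+/- gallbladder. As with Ptch1 1428853_at, the genotypes were apart in ICR and overlapped in B6. The log2 difference was -0.84 in ICR (1.79-fold, SE 0.16, limma adjusted p = 0.167), -0.10 in B6 (SE 0.16, adjusted p = 1.00) and -0.47 over both strains (SE 0.11, adjusted p = 0.244). The B6 minus ICR difference of these effects was 0.74 for Gli1 (SE 0.22, unadjusted p = 0.0123) and 0.65 for Ptch1 1428853_at (SE 0.26, unadjusted p = 0.0411), neither of which passed (limma adjusted p = 0.817 for each).

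The order of the group means of Gli1 was ICR wild type, B6 wild type, B6 Sox17+/-, ICR Sox17+/- and cystic duct, and of these neighbours the B6 groups alone overlapped. For Ptch1 1428853_at the order was the same, but the first 3 groups overlapped one another in turn, and so did the last pair. For Hhip 1455277_at the wild type gallbladders overlapped at the top, and B6 Sox17+/-, cystic duct and ICR Sox17+/- overlapped in turn below.

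Gli2 and Gli3, the factors that act before Gli1, and Smo did not pass for genotype. Gli2 1459211_at lay between 8.65 and 9.06 in all 8 gallbladders (difference over both strains -0.09, SE 0.09) and Gli2 1446086_s_at between 7.08 and 7.55 (-0.18, SE 0.11). Gli3 1456067_at lay between 8.47 and 8.90 (-0.11, SE 0.11). Gli3 1455154_at read 8.49 and 8.66 in ICR wild type, 8.21 and 8.20 in ICR Sox17+/-, 8.29 and 8.62 in B6 wild type and 8.19 and 8.34 in B6 Sox17+/- gallbladder (difference over both -0.28, SE 0.10, limma adjusted p = 0.433). Smo 1427049_s_at lay between 10.20 and 10.51 (-0.04, SE 0.07) and Smo 1427048_at between 8.81 and 9.36 (-0.12, SE 0.10). The 95% confidence interval of the difference was -0.20 to 0.12 for Smo 1427049_s_at and -0.31 to 0.13 for Gli2 1459211_at, so that a genotype difference of the size seen in Hhip lay outside both. That of Gli3 1455154_at was -0.52 to -0.04, which holds a fall of the size seen in Gli1 (-0.47).

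Among the co-receptors, Gas1, which is anchored in the membrane by a lipid, differed by -0.02 (SE 0.06), 0.05 (SE 0.19) and 0.15 (SE 0.10) for its 3 probe sets over both strains. Cdon, an immunoglobulin superfamily protein, read 9.63 and 9.80 in ICR wild type and 10.00 and 9.91 in ICR Sox17+/- gallbladder in probe set 1434957_at (difference over both strains 0.18, SE 0.08), while 1421452_at differed by -0.20 (SE 0.13). Boc, a close relative of Cdon, gave readings that did not settle its level. Boc 1426869_at read 4.38 and 6.47 in ICR wild type, 6.18 and 7.02 in ICR Sox17+/-, 7.16 and 7.39 in B6 wild type and 7.13 and 7.01 in B6 Sox17+/- gallbladder, so the ICR wild type replicates lay further apart than the genotype means of either strain (difference over both strains 0.49, SE 0.44). Without ICR wild type replicate 2, whose partner is the low reading, this probe set stood at 1.01 over both strains (limma adjusted p = 0.0475) and 2.22 in ICR (0.00783). Boc 1427516_a_at lay between 7.24 and 7.77 in all gallbladders (0.07, SE 0.10).

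**Figure D2:**
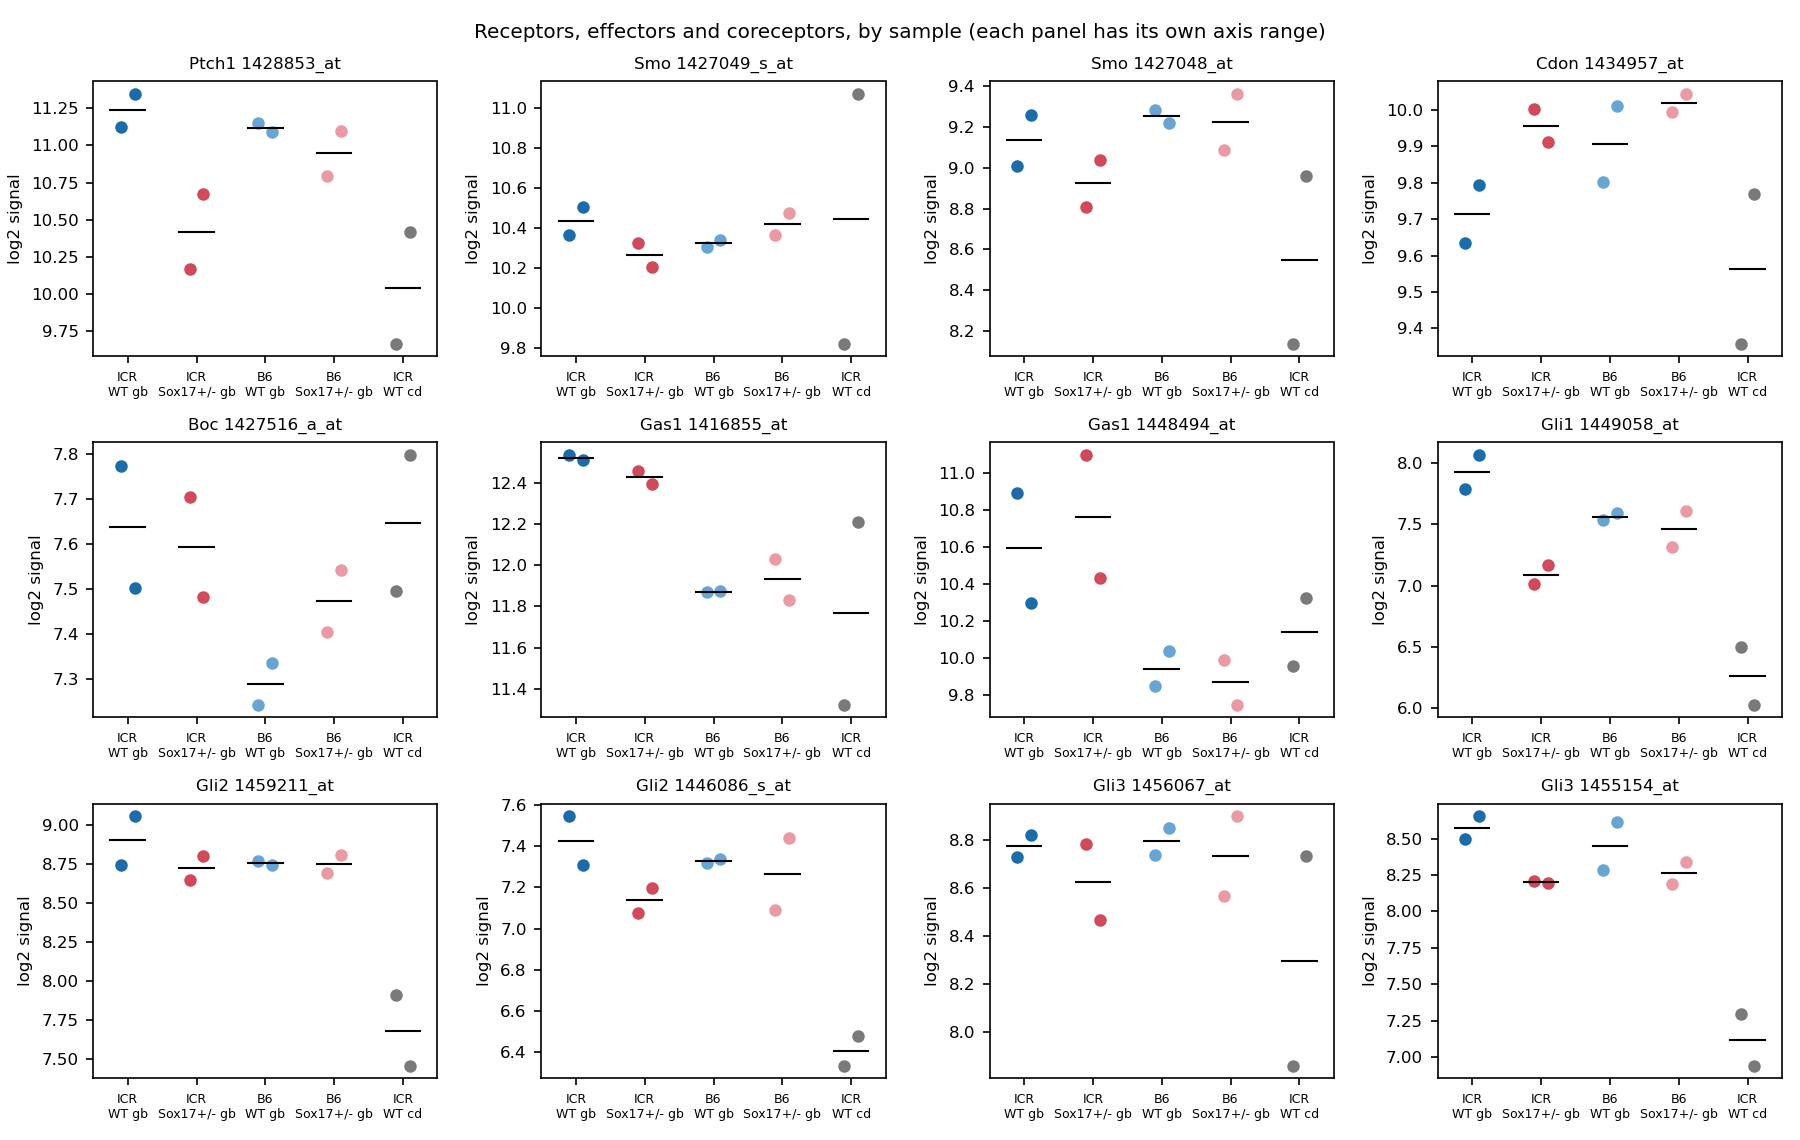
Log2 signal of the 12 brighter probe sets of the genes other than Hhip (at or above the 60th percentile of mean signal) in each sample (points; bars are the means of 2), with gb for gallbladder and cd for cystic duct and a separate axis range per panel. Gli1, Gli2 1459211_at and Gli3 1455154_at are lowest in the cystic duct pair, and Gas1 1416855_at is higher in ICR than in B6 gallbladders.

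Counted over the 9 genes, 2 of 21 probe sets fell over both strains, both of Hhip, and 0 rose; of all probe sets tested, 0.0940% were called lower and 0.0409% higher. In ICR 1 fell and 0 rose, against 0.0327% and 0.0164% of all probe sets. In B6 0 fell and 0 rose, against 0.00818% and 0.00409%; at an unadjusted p under 0.05 limma listed 3 member probe sets there and 1212 of all. Over both strains 16 of the 21 lay below zero (53.7% of all probe sets did), with a median of -0.12 against -0.01 over all probe sets. In ICR 17 did (55.2% of all), with a median of -0.21 against -0.03. In B6 15 did (51.2% of all), with -0.07 against -0.005. Probe sets of 1 gene are not independent readings. The deposited values, without further normalization, gave 31 of 38 ICR calls as lower (81.6%) and the median-centred values 4 of 5 (80.0%), against 8 of 12 here (66.7%). In B6 all calls were then lower, 2 of 2 on each scale. These shares rest on few calls. Without ICR wild type replicate 2 the balance turned: 150 of all probe sets were lower and 910 higher over both strains (14.2% lower, against 69.7%), and 104 and 1080 in ICR (8.78% lower), while the Hhip calls stayed lower.

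Shh, the ligand, fell in both strains. Its probe set 1436869_at read 11.71 and 11.69 in ICR wild type, 8.36 and 8.56 in ICR Sox17+/-, 12.26 and 12.27 in B6 wild type and 9.11 and 9.51 in B6 Sox17+/- gallbladder. The fall was 3.24 in ICR and 2.95 in B6 on the log2 scale (SE 0.14 each, limma adjusted p = 0.00181 and 0.00345). With the replicate number as a block, 0 of all probe sets passed in B6, so the B6 call of Shh was lost. In the same samples, Gli1 differed by -0.84 and -0.10 and Ptch1 1428853_at by -0.82 and -0.17. Ihh, a related ligand, differed by -0.80 over both strains (SE 0.17, limma adjusted p = 0.186).

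Other genes of the pathway were taken from lists by role, and none of them but Shh passed for genotype in either strain or over both. Among 13 tested genes known as Hedgehog targets in gut and visceral mesenchyme, Foxf1, a forkhead factor of that mesenchyme, differed by -0.53 over both strains (1434939_at; SE 0.08, limma adjusted p = 0.0752), by -0.87 in ICR and by -0.20 in B6. The second Foxf1 probe set gave -0.47 (SE 0.20). Mycn, a proliferation factor, went the other way at 0.67 (1417155_at; SE 0.09, adjusted p = 0.0616), but its remaining probe sets gave 0.23 and 0.03. The medians over both strains were -0.08 for these targets, -0.01 for 15 cytoplasmic regulators, -0.05 for 13 ciliary components and 0.02 for 6 genes of ligand processing and release, close to the -0.01 over all probe sets.

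Markers of other cell types, given beside these values, had 0 genes past the threshold for genotype among 11 hepatocyte, 7 erythroid and 8 skeletal muscle genes tested, in either strain or over both. Their list means nonetheless differed between samples. The mean of 11 hepatocyte markers was 10.07 and 9.84 in ICR wild type and 11.75 and 11.04 in ICR Sox17+/- gallbladder, and the 11 genes had a median difference of 1.43 in ICR and 0.17 in B6. Erythroid markers (8 genes) ranged from 6.26 to 7.54 in ICR wild type and from 7.45 to 8.07 in ICR Sox17+/-, and from 7.79 to 7.81 and 8.17 to 8.85 in B6. Skeletal muscle markers stood at 8.0 in B6 Sox17+/- replicate 3, against 4.96 to 5.65 in the other 7 gallbladders. For the mesenchyme that receives Hedgehog signals, fibroblast and matrix markers ranged from 12.37 to 12.91 over the 8 gallbladders and smooth muscle markers from 8.89 to 9.21, and 0 of their 10 and 9 tested genes passed for genotype (median differences -0.03 and -0.12 over both strains). The part of these markers in the differences of Hhip, Ptch1 and Gli1 was not tested.

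**Figure D3:**
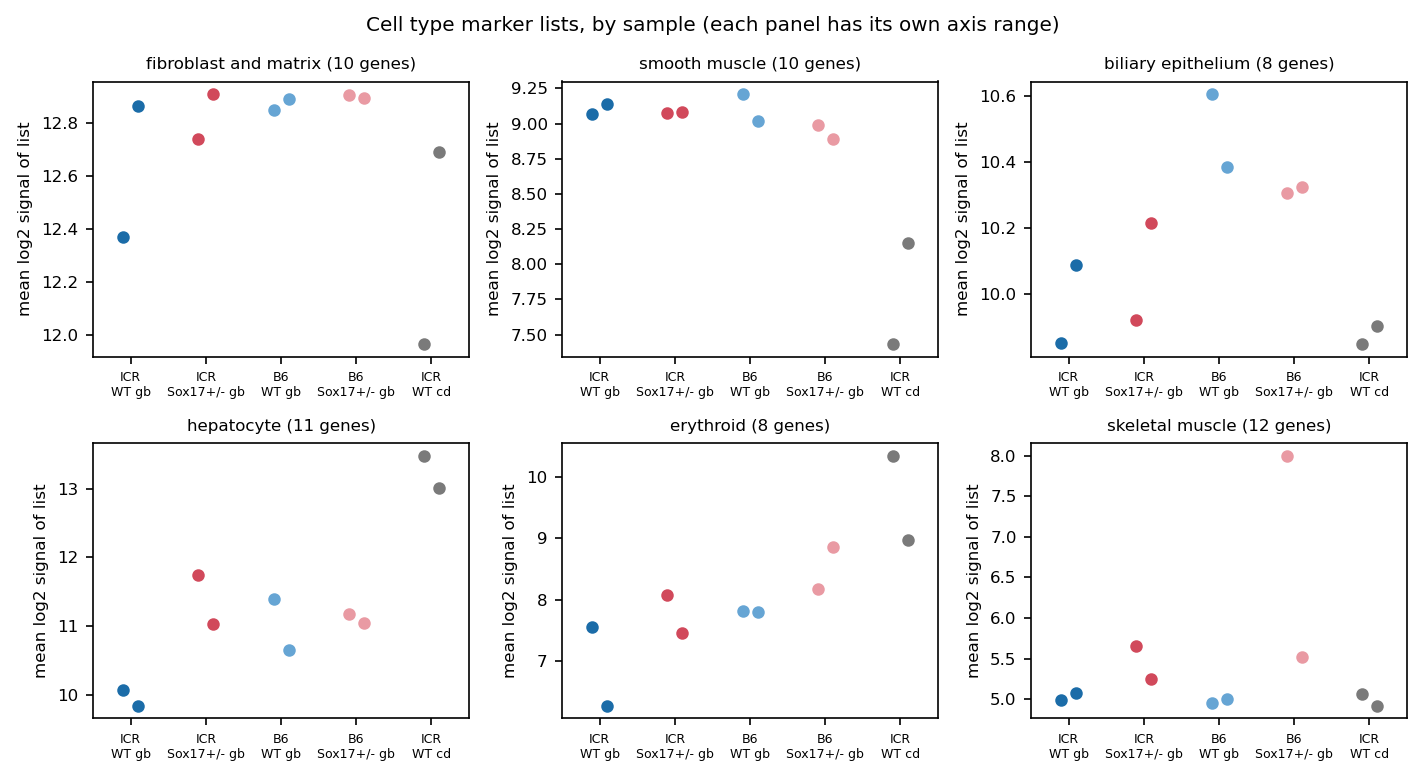
Mean log2 signal of 6 lists of cell type markers in each sample (points), with gb for gallbladder, cd for cystic duct and a separate axis range per panel. Hepatocyte and erythroid markers are highest in the cystic duct pair, at 13.01 to 13.48 and 8.98 to 10.35, and smooth muscle markers lowest there, at 7.43 to 8.15.

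Between the strains, Gas1 was lower in B6 than in ICR gallbladder. Gas1 1416855_at read 12.54, 12.51, 12.46 and 12.40 in the 4 ICR gallbladders and 11.87, 11.87, 12.03 and 11.83 in the 4 B6 ones. Gas1 1448494_at read 10.89, 10.30, 11.10 and 10.43 in ICR and 9.85, 10.03, 9.99 and 9.75 in B6. The strains did not overlap in either, and over both genotypes B6 was lower by -0.58 (1.49-fold, SE 0.06, limma adjusted p = 0.00215) and -0.77 (1.71-fold, SE 0.19, adjusted p = 0.0334). The dim probe set 1456322_at gave 0.02 (SE 0.10).

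Hhip 1437933_at, described above, was lower in B6 by -1.34 (2.52-fold, SE 0.19, limma adjusted p = 0.00541), while the other Hhip probe sets differed between strains by 0.11, 0.16 and 0.04. Since probe sets of 1 gene disagree here, the strain difference of Hhip rests on that probe set. Boc 1426869_at was higher in B6 by 1.16 without passing (SE 0.44, limma adjusted p = 0.120). Gli1 differed by 0.003 (SE 0.11), and no probe set of Ptch1, Smo, Gli2, Gli3 or Cdon passed, with differences from -0.16 to 0.24. Shh was higher in B6 by 0.71 (SE 0.10, limma adjusted p = 0.00544).

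In all, 3 member probe sets were lower in B6 and 0 higher, and their median difference was 0.02 against 0.05 over all probe sets. Of all probe sets tested, 8.90% were called lower and 6.76% higher, and 3 of 21 is near that background. The share of lower calls among all calls was 56.8% here, 79.2% in the deposited values and 41.5% after median centring, while the 3 member calls stayed lower in each. With all 10 samples both Gas1 calls were lost (limma adjusted p = 0.117 and 0.0621). That of 1448494_at was also lost without ICR Sox17+/- replicate 1 or any 1 of the 4 B6 samples (adjusted p up to 0.123). Replicate numbers 1 and 2 occur in ICR and 3 and 4 in B6, so strain could not be fitted beside the number, and strain and whatever a number shares cannot be told apart. Of 13 target genes, 9 had at least 1 probe set lower in B6, among them Wnt5a and Fst, against 12.3% of all genes tested. A gene with more probe sets has more chances of a call. Several targets, such as Ccnd2 and Sfrp1, have many, and the 12.3% was not matched for this. The median of the 13, each read by its brightest probe set, was -0.15, with 7 below zero, and probe sets of Sfrp1 disagreed (-1.96 and 2.40), as did those of Ccnd1.

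Marker genes of several cell types also differed between the strains and are named here with their values known. Of all genes tested, 12.3% had a probe set called lower in B6. Of all probe sets, 6.76% were called higher, and this share was not counted by gene. Of 10 fibroblast and matrix genes 3 were lower in B6 (Col1a2, Col3a1 and Dcn), with a list median of 0.05. Of 8 biliary epithelium genes 3 were higher (Cldn4, Krt7 and Krt8; median 0.31), of 11 hepatocyte genes 2 (Afp and Serpina1b; median 0.45), of 7 erythroid genes 1 (Epb42; median 0.76) and of 8 leukocyte genes 4 (median 0.75). Of 9 smooth muscle genes 1 was lower (Myocd, with a list median of -0.03), near the share of all genes. Their part in the strain differences of the pathway genes was not tested.

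The cystic duct differed from the gallbladder of the same ICR wild type stock in the Gli genes. Gli1 read 6.50 and 6.03 in cystic duct against 7.79 and 8.07 in gallbladder, lower by -1.66 (3.17-fold, SE 0.23, limma adjusted p = 0.00625). Gli3 1455154_at read 7.29 and 6.94 against 8.49 and 8.66, lower by -1.46 (2.75-fold, SE 0.20, adjusted p = 0.00557). Both were lower in each cystic duct sample than in all 8 gallbladders of either strain and genotype.

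Gli2, the main activator, was lower in both of its probe sets. Gli2 1459211_at read 7.91 and 7.45 in cystic duct against 8.75 and 9.06 in gallbladder (-1.22, SE 0.20, limma adjusted p = 0.00997), and 1446086_s_at read 6.33 and 6.48 against 7.55 and 7.31 (-1.02, SE 0.21, adjusted p = 0.0205). Neither probe set overlapped between the regions. Gli3 1456067_at did not pass, and its cystic duct readings of 7.86 and 8.73 were far apart (-0.48, SE 0.28).

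Hhip and Ptch1 were lower in cystic duct too. Hhip 1455277_at read 6.34 and 6.97 there against 8.22 and 8.46, 1421426_at 5.07 and 4.45 against 6.80 and 6.44, and 1437933_at 5.82 and 6.47 against 7.48 and 7.51. The differences were -1.68, -1.86 and -1.35 (SE 0.28, 0.25 and 0.33; limma adjusted p = 0.0111, 0.00578 and 0.0391), and that of 1438083_at was -1.07 (adjusted p = 0.0513). Ptch1 1428853_at read 9.66 and 10.42 against 11.13 and 11.35 (-1.19, 2.29-fold, SE 0.27, adjusted p = 0.0288). The dimmer Ptch1 probe sets gave -0.65 and 0.46 and did not pass.

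The transducer and the co-receptors did not pass for region. Smo 1427049_s_at read 9.82 and 11.07 in cystic duct, on either side of the gallbladder readings of 10.37 and 10.51 (0.01, SE 0.33), and stood at -0.61 without cystic duct replicate 2 and 0.63 without replicate 1. Smo 1427048_at read 8.14 and 8.96 against 9.01 and 9.26 (-0.58, SE 0.26). Gas1 1416855_at read 11.32 and 12.21 against 12.54 and 12.51 (-0.76, SE 0.25, limma adjusted p = 0.0874), and the others gave -0.46 and -0.65. Cdon gave -0.15 and -0.87, and Boc 0.01 and -0.26. A fall of 1 log2 unit lay inside the 95% interval of Cdon 1421452_at (-1.64 to -0.09) and Smo 1427048_at (-1.19 to 0.02). The same held for Boc 1426869_at (-1.75 to 1.23) and for the Gas1 probe sets. For Gas1 the intervals were -1.33 to -0.19 (1416855_at), -1.09 to 0.18 (1448494_at) and -1.11 to -0.18 (1456322_at). Several of these values depended on the scale or on 1 sample. Gas1 1416855_at passed in the deposited values (-1.05, limma adjusted p = 0.00707) and after median centring (-0.95, 0.0342), and Smo 1427048_at in the deposited values (-0.93, 0.0261).

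Over the 9 genes, 8 of 21 probe sets, of 5 genes, were lower in cystic duct and 0 higher, where 7.10% of all probe sets were lower and 4.03% higher. The median was -0.76 against -0.07 over all probe sets, and 18 lay below zero, as did 54.9% of all probe sets. The share of lower calls in the whole table was 63.8%, against 87.5% in the deposited values and 76.4% after median centring, where the median of all probe sets was -0.30 and -0.19. The 8 calls were lower in both, with Gli1 at -1.79 and -1.69, and 11 and 9 member probe sets passed there in all. With the variance taken from the 4 compared samples alone, or with array weights, 0 of the 8 passed (limma adjusted p = 0.221 to 0.342 and 0.155 to 0.559), and 0 of all probe sets did. Gli1, Gli2 1459211_at, Gli3 1455154_at and Hhip 1421426_at passed without any 1 of the 10 samples. The calls of Ptch1 1428853_at and Hhip 1437933_at were lost without either ICR wild type gallbladder or any 1 of the 4 B6 samples (limma adjusted p up to 0.124 and 0.143), and that of Hhip 1437933_at also without either ICR Sox17+/- sample. Gli2 1446086_s_at was lost without either ICR or either B6 wild type gallbladder (up to 0.118), and Hhip 1455277_at without ICR wild type gallbladder replicate 2 (0.0558). Without cystic duct replicate 1, Smo 1427049_s_at stood at 0.63 and Ptch1 1450824_at at 0.74. The remaining cystic duct sample is assumed in such a fit to vary like the other groups.

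**Figure D4:**
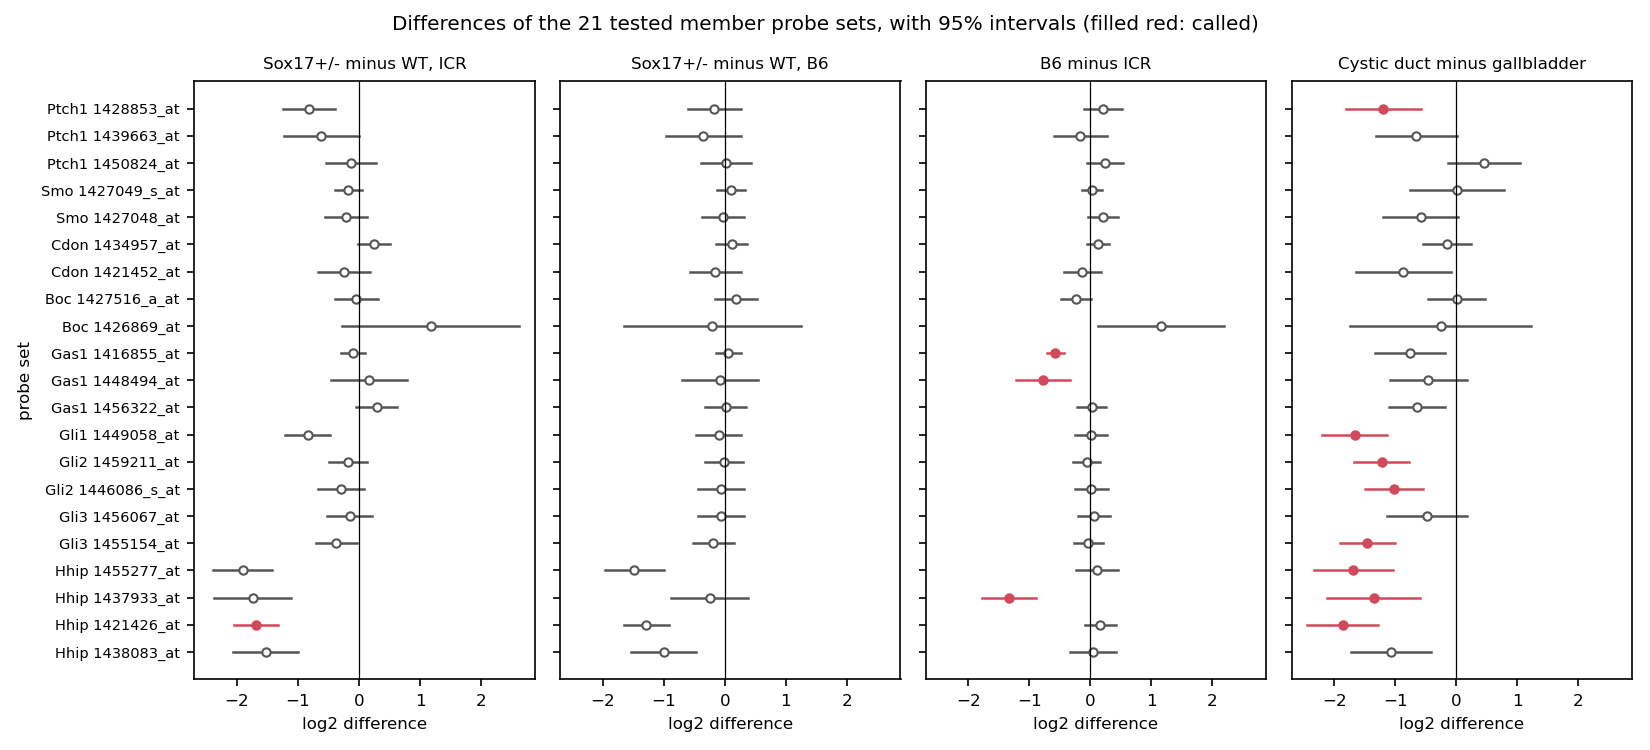
Log2 differences of the 21 tested probe sets (points, with 95% confidence intervals) for Sox17+/- minus wild type gallbladder in ICR and in B6, B6 minus ICR gallbladder, and ICR wild type cystic duct minus gallbladder; filled red points passed an adjusted p of 0.05. Hhip stands lowest for genotype, and the Gli genes, Hhip and Ptch1 1428853_at are lower in cystic duct.

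The ICR genotype and region comparisons share the ICR wild type gallbladder pair, so their values are set side by side only. For genotype and region respectively they were -1.69 and -1.86 in Hhip 1421426_at, -0.82 and -1.19 in Ptch1 1428853_at, -0.84 and -1.66 in Gli1, -0.18 and -1.22 in Gli2 1459211_at, and -0.37 and -1.46 in Gli3 1455154_at. Shh stood at -3.24 and -2.93 (cystic duct readings 7.90 and 9.62, SE 0.46, limma adjusted p = 0.00884 for region).

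Other pathway genes were counted as genes with at least 1 probe set past the threshold for region, and 10.7% of all 13887 genes tested had a lower and 6.36% a higher one. Here too the shares were not matched for the number of probe sets per gene. Of 13 target genes 6 were lower and 1 higher, the cyclin Ccnd1 (named after its values were seen), with a median of -0.62. They included Foxf1 1434939_at, which read 9.12 and 9.13 in cystic duct against 10.91 and 10.95 (-1.80, SE 0.13, limma adjusted p = 0.00210), the second Foxf1 probe set giving -0.33 (SE 0.50). Wnt5a, a secreted Wnt ligand, was lower by -2.43 (1436791_at, SE 0.22) and Fst, the activin inhibitor follistatin, by -1.79 (1421365_at, SE 0.22). Among 6 genes of ligand processing and release 3 were lower: Scube2 (-1.93), Hhat (-1.10) and Disp1 (-0.82). The counts of the remaining lists were nearer to those shares. Of 13 ciliary genes 2 were lower, the receptor Gpr161 (-1.49) and the small GTPase Rab23 (-0.77), both restraints on the pathway. Of 15 cytoplasmic regulators 3 were lower, led by the kinase Gsk3b 1454958_at (-1.0), and 2 higher, with a median of -0.44.

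Markers of other cell types also differed between the regions. Hepatocyte markers averaged 13.48 and 13.01 in cystic duct against 10.07 and 9.84 in gallbladder, with 11 of 11 genes higher and a median of 3.53; erythroid markers averaged 10.35 and 8.98 against 7.54 and 6.26, with 6 of 7 tested genes higher. Smooth muscle markers averaged 7.43 and 8.15 against 9.06 and 9.14, with 5 of 9 genes lower (median -1.77), among them Acta2 at -1.77. Fibroblast and matrix markers averaged 11.96 and 12.69 against 12.37 and 12.87, with 5 of 10 genes lower (median -0.57). The part of these differences in tissue makeup in the lower Gli1, Gli2, Gli3, Hhip and Ptch1 of the cystic duct was not tested.

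By profile over the 10 samples, each centred on its own mean, the genes nearest to Gli1 were Bcl9, Yes1 and Opcml, with root mean square differences of 0.12, 0.12 and 0.14 log2 units. Those nearest to Ptch1 1428853_at were the long non-coding RNA Fendrr, which lies beside Foxf1, Sbk1 and Myo6 (0.11, 0.12 and 0.13). Those nearest to Hhip 1455277_at were Sox17 itself (1429177_x_at), Igfbp2 and Igsf1 (0.28, 0.29 and 0.30), at a greater distance.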

How the data were processed

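Total RNA of 10 samples was hybridised to Affymetrix arrays, from 10 ug each per the labels' protocols. The authors deposited 1 log2 value per probe set, per the labels; how background was corrected and probes were summarised is not given in the sources used here. Values ran from 2.20 to 15.15 and sample medians from 5.51 to 6.07, so samples were quantile normalised over 45037 probe sets (64 controls left out). Genes came from the platform annotation: 34945 probe sets had 1 gene, 932 several and 9160 none. Of the first, 34741 had an Entrez identifier in the reference table (GRCm38.p6). Every single-gene probe set was tested on its own, and those under the 30th percentile of mean signal (4.81) were left out, leaving 24461.

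Linear models with 1 mean per group were fitted in limma 3.58.1 (R 4.3.3, empirical Bayes with a mean-variance trend) and adjusted by Benjamini-Hochberg over all 24461; a call is an adjusted p of 0.05 or less. Genotype and strain used the 8 gallbladder samples (4 residual degrees of freedom, 7.03 with the prior), region all 10 (5 and 8.01). An exact permutation test of 2 against 2 cannot go below p = 0.333, so all p-values lean on the variance shared across probe sets. Same-numbered wild type and Sox17+/- samples deviated together from their group means (correlation 0.390 in ICR, 0.306 in B6). The number was therefore taken to pair them, and the blocked p is given where it ends the call of a member. The labels do not say what a number shares. Gallbladder and cystic duct numbers did not deviate together (0.0738).

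The members, lists and tests were chosen with earlier results of these data known. Named genes are all members, Shh, Ihh and Sox17, called genes of other lists (at most 4 per list and comparison, by p; otherwise the 2 smallest p over both strains) and the 3 nearest profiles of Ptch1, Gli1 and Hhip. The steps were tested on simulated data. Alternatives were the deposited scale, median centring, the filter, 1 probe set per gene, no trend, array weights, the block, other samples in the fit and leaving out each sample. Sequences were read from a RefSeq table. The table held 0 other columns per sample. Python 3.11.15, pandas 2.3.3 and matplotlib 3.10.9 made tables and figures.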

Additional observations from a re-analysis of the deposited data

How the results depend on the processing

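With 2 samples a group the calls rest on variances shared across groups and probe sets, and a p that misses the threshold does not show that values did not differ. Signal near the filter limits the dim probe sets of Smo, Gli3 and Boc. No member probe set that passed changed sign under any alternative run. Of the log2 differences of single member probe sets under an alternative, 1867 kept a call or, with no call, moved by no more than 1 SE; 84 with no call moved by more, 64 lost and 33 gained a call, and 1 reversed. The reversed value is Smo 1427049_s_at for region, 0.01 in all samples and -0.61 without cystic duct replicate 2 (0.63 without replicate 1). Counts below are of member probe sets and, where given, of all probe sets.

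Over both strains the counts were 2 of 21 and 33 of all. They were 67 of all in the deposited values, 55 of all without the filter, 1 member with the filter at the 50th percentile, 1 and 64 with 1 probe set per gene, 0 and 13 with the replicate block, and 0 and 2 with all 10 samples. Leaving out 1 sample gave 0 to 4 members and 3 to 1060 of all; 1060 came without ICR wild type gallbladder replicate 2. That fit had 150 probe sets lower and 910 higher. In ICR (1 and 12) they were 3 and 38 in the deposited values, 5 of all after median centring, 2 members without the filter and 0 at the 50th percentile, 19 of all with 1 probe set per gene, 0 and 1 each with array weights, the replicate block and all 10 samples, and 0 to 5 and 0 to 1184 leaving out 1 sample. In B6 (0 and 3) they were 5 of all with 1 probe set per gene, 2 and 43 with array weights (both of Hhip), 0 of all with the replicate block, 1 of all with all 10 samples, and 0 to 8 of all leaving out 1 sample. The difference of the effects (0 and 0) gave 0 to 1 members and 0 to 877 of all leaving out 1 sample; the 1 is Boc 1426869_at without ICR wild type gallbladder replicate 2.

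For strain (3 and 3831) the counts were 1 and 1213 with 1 probe set per gene and 1 and 1389 with all 10 samples, and 1490 to 5229 of all leaving out 1 sample. No paired analysis was possible for strain because the strains share no replicate number. For region (8 and 2724) they were 4 members with 1 probe set per gene, 0 and 0 each with array weights and with only the 4 compared samples, and 4 to 13 and 774 to 11922 leaving out 1 sample, the highest without cystic duct replicate 1; the block there pairs numbers that do not deviate together.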
